A study of Mus musculus with 9 samples.

Results

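Described here are 37 genes of leukocytes, complement and antigen presentation in the mouse ovary, taken by symbol from the 46078 genes of the count table. They were grouped by role into 1 pan-leukocyte gene (Ptprc), 12 macrophage and myeloid genes, the 3 chains of C1q, 5 genes of the MHC class II system, 7 lymphocyte and dendritic cell genes, 4 mast cell genes and 5 genes of complement and the acute phase. After the filter on low counts 32 of the 37 could be tested, and Cd3e, Cd8a, Gzmb, Ms4a2 and Cfb could not. RNA-seq had been performed on whole, untreated ovaries of 5 WT and 4 ERβKO mice on a C57BL/6J background, with 1 library per mouse. The ERβKO mice carried a germline deletion of exon 3 of the ERβ gene, made with a Rosa26-Cre deleter line, so that the deletion was not restricted to a cell type. The WT controls were offspring without Cre. Mice of all experiments of the study were 4 to 20 weeks old, the age of each animal is not given in the sources used here, and ovaries were not collected at a set stage of the estrus cycle. Counted over its whole length, remaining exons included, the ERβ gene Esr2 had 965 to 1749 fragments in WT and 682 to 1657 in ERβKO libraries, so that its count does not test the labels. The libraries held 12353740 to 16519975 counted fragments in WT and 13088728 to 18717510 in ERβKO ovaries, with ERβKO replicates 1 and 2 the deepest. WT replicates 4 and 5 carry library numbers above 200 and the other libraries numbers below it, so that the higher numbers occur in WT only, and the comparison was also made with the 3 WT and 4 ERβKO libraries numbered below 200 alone.

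Macrophages are the most abundant leukocytes of the ovary and take part in follicle rupture, corpus luteum formation and the removal of dying cells. They secrete C1q, the recognition unit of the classical complement pathway, whose downstream steps cleave C4, C2 and C3. Antigen-presenting cells display peptides on MHC class II, a pair of alpha and beta chains that is guided by the invariant chain Cd74 and switched on by the transactivator Ciita. Saa3 is an acute phase protein of the serum amyloid A family made largely outside the liver. In RNA from whole tissue, fewer cells of a type and less RNA per cell cannot be told apart.

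None of the 32 tested genes met the criteria for differential expression between ERβKO and WT ovaries. The criteria were a Benjamini-Hochberg adjusted p under 0.05 in edgeR's quasi-likelihood F test, an absolute log2 fold change (log2FC, ERβKO over WT) above 0.4 and a mean above 1 FPKM in either genotype, and 1.72% of all tested genes (287 of 16722) met them. An unadjusted p under 0.05 was obtained for 5 of the 32 tested members, or 15.6%, against 19.8% of all tested genes. These 5 were C4b, Csf1, H2-Ab1 and H2-Eb1 with positive and Saa3 with a negative log2FC. The median log2FC was 0.09 over the 32 members, of which 25 had positive and 7 negative values, and -0.00089 over all tested genes. DESeq2 called 1 member, C4b, by the same criteria, against 4.66% of the genes that received an adjusted p. The 95% interval of the fold change lay wholly between 0.5 and 2 for 28 of the 32 members, so that for these genes a change by more than a factor of 2 lies outside the interval.

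**Figure D1:**
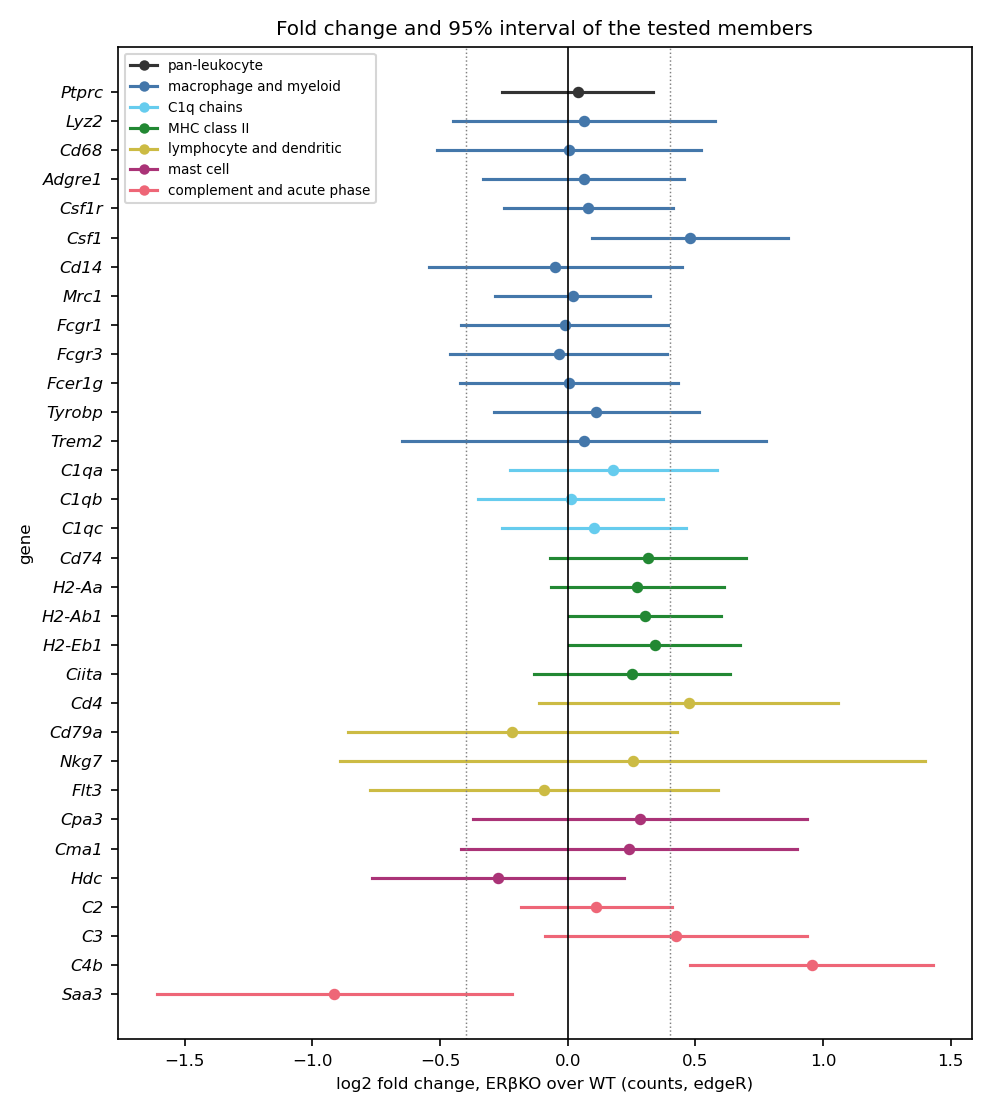
Log2 fold change (ERβKO over WT, horizontal axis) with its 95% interval for the 32 tested genes, coloured by role, with dotted lines at ±0.4. Most points lie near 0, while C4b lies at 0.96 and Saa3 at -0.91 with intervals that do not cross 0. The intervals of Csf1, H2-Ab1 and H2-Eb1 do not cross 0 either.

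The members covered a wide range of levels. Averaged over the 9 ovaries, 3 genes exceeded 100 FPKM, namely Lyz2 (158 FPKM), C3 (158 FPKM) and Cd74 (139 FPKM). A further 13 lay between 10 and 100 FPKM, 12 between 1 and 10 FPKM, and 9 under 1 FPKM. All 3 leading genes were among the top 1.66% of tested genes by level. The lowest band was made up of Ciita, Ms4a2 and the 7 lymphocyte and dendritic cell genes.

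Macrophage genes had near-equal mean levels in both genotypes. Ptprc, which encodes the CD45 phosphatase of all leukocytes, was measured at 4.15, 3.51, 3.67, 2.86 and 2.88 FPKM in WT replicates 1 to 5 and at 4.11, 3.73, 3.92 and 2.69 FPKM in ERβKO replicates 1 to 4. The groups overlapped over nearly their whole range, and the log2FC was 0.04 (standard error, SE, 0.13, edgeR adjusted p = 0.901). Lyz2, the lysozyme of macrophages and other myeloid cells, was at 208, 166, 161, 108 and 127 FPKM in WT and at 124, 243, 162 and 127 FPKM in ERβKO ovaries. The highest and the second lowest of the 9 values were both from ERβKO ovaries, and the log2FC was 0.06 (SE 0.23, edgeR adjusted p = 0.907). Adgre1, the F4/80 antigen of mature macrophages, was at 5.29, 3.83, 5.07, 3.28 and 3.15 FPKM in WT and at 5.02, 5.24, 3.62 and 3.73 FPKM in ERβKO ovaries (log2FC 0.06, SE 0.18). These values interleaved as well.

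The remaining macrophage genes were Cd68 (a lysosomal glycoprotein), Cd14 (the lipopolysaccharide co-receptor), Mrc1 (the mannose receptor), the Fc receptors Fcgr1 and Fcgr3, the signalling adaptors Fcer1g and Tyrobp, and the lipid-sensing receptor Trem2. Their log2FC values lay between -0.05 (Cd14) and 0.11 (Tyrobp). Among the 15 macrophage, C1q and pan-leukocyte genes other than Csf1, 12 had positive and 3 negative log2FC values (10 and 5 with the size factors of DESeq2), none beyond 0.18, and every 95% interval of the fold change lay between 0.5 and 2.

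Most of these 15 genes shared ovaries at the low and high ends, and these cut across the genotypes. WT replicate 4 was among the 3 lowest ovaries for 14 of the 15 genes and WT replicate 5 for 12, as was ERβKO replicate 4 for 12. WT replicate 1 was among the 2 highest ovaries for 13 of the 15. Cd14 was the exception for WT replicate 4, with 3.66 log2 CPM there, second only to 3.72 in ERβKO replicate 2. Without WT replicates 4 and 5, the 2 libraries numbered above 200, 14 of the 15 log2FC values were negative, with a median of -0.12 instead of 0.04, and the smallest edgeR adjusted p was 0.418. Without WT replicate 4 alone 11 of the 15 were negative, and without ERβKO replicate 2 alone 8. The direction for macrophage genes thus depended on these libraries, and their part in the result was not tested further.

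**Figure D2:**
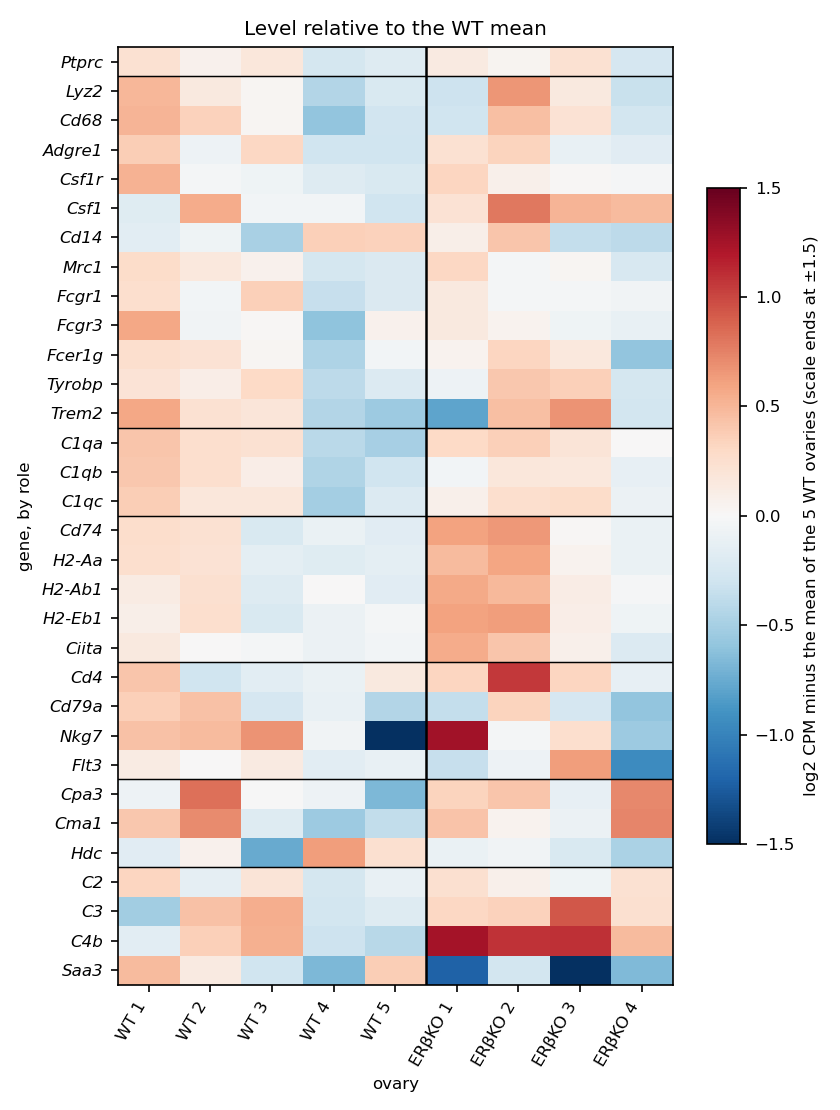
Level of the 32 tested genes (rows, grouped by role) in the 9 ovaries (columns), as log2 CPM minus the mean of the 5 WT ovaries, with colours ending at ±1.5. Most macrophage and C1q genes are low in WT replicates 4 and 5 and high in WT replicate 1, with Cd14 among the exceptions. The class II genes are high in ERβKO replicates 1 and 2, and C4b is above the WT mean in all 4 ERβKO ovaries.

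Of the pair formed by the growth factor Csf1, which sustains macrophages, and its receptor Csf1r, the ligand differed more between the groups. Csf1 (ENSMUSG00000014599, chromosome 3 of GRCm38 from 107741048 to 107760469) was at 4.69, 7.58, 5.64, 6.92 and 4.72 FPKM in WT and at 6.78, 9.06, 8.12 and 7.55 FPKM in ERβKO ovaries. In FPKM, WT replicates 2 and 4 lay within the ERβKO range, and the other 3 WT ovaries below it. On the log2 CPM scale only WT replicate 2, at 5.353, lay within it. WT replicate 4, at 4.753, was below the lowest ERβKO value, 5.015 in replicate 1. The log2FC was 0.48 (SE 0.17, edgeR adjusted p = 0.168, exact two-sided permutation test on log2 CPM, p = 0.0635, where 0.0159 is the smallest p possible with 5 against 4 ovaries). Without WT replicate 2 it was 0.65 with an edgeR adjusted p of 0.0176, and among the 9 fits that left out 1 ovary this was the only one in which Csf1 was called. Csf1r was at 10.1, 7.16, 6.70, 6.25 and 5.85 FPKM in WT and at 9.39, 8.06, 6.98 and 7.21 FPKM in ERβKO ovaries, a log2FC of 0.08 (SE 0.15, edgeR adjusted p = 0.807). In FPKM, WT replicate 1 held the highest Csf1r level and the lowest Csf1 level of all ovaries. On the log2 CPM scale Csf1 was lowest in WT replicate 5, at 4.5 against 4.61 in WT replicate 1. The level of Csf1 per level of Csf1r ranged from 0.463 in WT replicate 1 to 1.16 in ERβKO replicate 3. Csf1r shares 15.1% of its exon length with a gene on the opposite strand, and the strand setting of the counting is not given in the sources used here. Of the 6 other genes of the colony-stimulating factor axis 5 were tested, with a median log2FC of -0.04. None was called by edgeR or DESeq2, and 0 had an unadjusted p under 0.05 in edgeR.

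The 3 chains of C1q varied together over the ovaries, C1qb and C1qc most closely. C1qa was at 50.8, 45.9, 44.5, 28.6 and 25.8 FPKM in WT and at 47.7, 50.2, 42.1 and 38.8 FPKM in ERβKO ovaries. WT replicates 4 and 5 lay below all 4 ERβKO ovaries, and the other WT ovaries within or above their range. The log2FC was 0.18 for C1qa (SE 0.18, edgeR adjusted p = 0.634), 0.01 for C1qb and 0.10 for C1qc. The ratio of the C1qc to the C1qb level in FPKM ranged only from 0.438 to 0.510 over the 9 ovaries, while the sum of the 3 chains ranged from 74.4 to 136 FPKM. The 3 genes lie next to each other on chromosome 4, between 136880129 and 136898803.

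All 5 MHC class II genes had positive log2FC values, from 0.25 (Ciita) to 0.34 (H2-Eb1), and none was called (edgeR adjusted p from 0.248 to 0.451). Cd74 was at 142, 149, 104, 118 and 108 FPKM in WT and at 192, 203, 124 and 115.03 FPKM in ERβKO ovaries. Replicates 1 and 2 of ERβKO were above every WT ovary, and replicates 3 and 4 within the WT range. For the alpha chain gene H2-Aa the same ovaries were highest, with 83.8, 83.1, 63.4, 62.1 and 61.4 FPKM in WT and 102, 110.4, 73.0 and 66.5 FPKM in ERβKO ovaries. H2-Ab1, which encodes its beta chain partner, was at 45.9, 50.2, 36.7, 42.3 and 35.4 FPKM in WT and at 64.1, 60.3, 45.1 and 41.9 FPKM in ERβKO ovaries (log2FC 0.30, SE 0.13, edgeR adjusted p = 0.248). H2-Eb1, which encodes another class II beta chain, was at 40.5, 45.9, 32.5, 35.8 and 36.1 FPKM in WT ovaries. In ERβKO ovaries it was at 59.8, 61.0, 40.2 and 37.1 FPKM (log2FC 0.34, SE 0.15, edgeR adjusted p = 0.248).

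Across the 5 class II genes, ERβKO replicates 1 and 2 held the 2 highest ranks each time. Their summed level was 418 and 436 FPKM, against 283 and 261 FPKM in ERβKO replicates 3 and 4 and 237 to 329 FPKM in WT. Leaving out ERβKO replicate 2 lowered the median log2FC of the 5 genes from 0.30 to 0.19, and leaving out replicate 1 lowered it to 0.21, while all 5 values stayed positive in every fit that left out 1 ovary. The same 2 ovaries had the highest levels of Ighm, the heavy chain of IgM made by B cells, at 46.2 and 52.2 FPKM against 9.12 to 20.9 FPKM in the other 7. Other B cell genes, named after their values were seen, did not have this order: in FPKM, Cd79a was lowest of all ovaries in ERβKO replicate 1, and Ms4a1 (log2FC -0.24, SE 0.36) and Cd79b (0.00075, SE 0.35) were highest in WT replicate 2. Among the 15 macrophage, C1q and pan-leukocyte genes, ERβKO replicate 2 was among the 2 highest ovaries for 7 and replicate 1 for 3. The ratio of Cd74 to Lyz2 was 1.55 in ERβKO replicate 1 and between 0.645 and 1.09 in the others. The summed level of 8 adipocyte markers was 1051 FPKM in ERβKO replicate 1 and 361 FPKM in replicate 2, against 158 to 342 FPKM in WT, with 465 FPKM in replicate 3 and 166 FPKM in replicate 4. None of the 8 was listed at 0, 7 of them had positive log2FC values with a median of 1.28 over the list, and all 8 had an unadjusted p under 0.05 in edgeR. By the criteria above edgeR called 0 of them and DESeq2 3. Their part in the class II result was not tested.

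Promoters of 25 members were found in the RefSeq table for GRCm38.p6, including those of H2-Aa and H2-Eb1 but not of H2-Ab1, Ciita or C4b. Class II promoters carry an X box and a Y box, which bind the RFX and NF-Y complexes that recruit Ciita, and the stretches that hold them are shown because these genes varied together over the ovaries. Capitals mark the X box of H2-Eb1, searched in the shortened form CAACNGATG, the X2 box of H2-Aa with the letters TGACGTCA, and the Y box CTGATTGG of both. The pieces run from position -100 to -30 before the transcription start, in the direction of transcription.
H2-Aa, chr17:34287853-34287923, minus strand: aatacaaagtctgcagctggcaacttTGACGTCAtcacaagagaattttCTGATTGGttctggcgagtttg
H2-Eb1, chr17:34305767-34305837, plus strand: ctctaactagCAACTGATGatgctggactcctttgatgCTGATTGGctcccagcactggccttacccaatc
The Y box began at -51 in H2-Aa and at -62 in H2-Eb1, and none of these matches overlapped. Over both strands of the window from -250 to 50 around each start, 4.10% of 32851 promoters held a Y box, 1.79% the X2 box and 0.566% the shortened X box. Of 7 MHC class I genes with a promoter entry, 4 held the Y box as well (H2-D1, H2-K1, Psmb9 and Tap1). The X2 box and the shortened X box were found in 0 of these 7. Because the motifs were chosen with the promoter sequences in view, these shares cannot test an enrichment in class II genes. A match of letters is a description and not a binding site.

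The lymphocyte and dendritic cell genes were close to the limit of detection. Cd3e, a chain of the T cell receptor complex, was at 0.594, 0.200, 0.286, 0 and 0.230 FPKM in WT and at 0.302, 0.421, 0.279 and 0.407 FPKM in ERβKO ovaries, from 3 to 16 counts per library. Cd8a, of cytotoxic T cells, had 1 to 19 counts and was listed at 0 FPKM in 4 libraries, and the granzyme gene Gzmb had 4 to 15 counts. These 3 genes fell below the filter on low counts and were not tested by edgeR, and DESeq2 called none of them. Cd79a, of the B cell receptor, was at 1.12, 1.10, 0.702, 0.892 and 0.566 FPKM in WT and at 0.531, 1.08, 0.581 and 0.597 FPKM in ERβKO ovaries. ERβKO replicate 1 was just under the lowest WT value and the other 3 lay inside the WT range (log2FC -0.22, SE 0.29, edgeR adjusted p = 0.721). Cd4, which helper T cells and some myeloid cells express, had the largest log2FC of the group at 0.47 (SE 0.26, edgeR adjusted p = 0.352), with 1.27 FPKM in ERβKO replicate 2 and 0.451 to 0.831 FPKM in the other 8 ovaries. The values were 0.25 for Nkg7, of natural killer and cytotoxic T cells, and -0.09 for Flt3, of dendritic cell precursors.

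Among the mast cell genes, Hdc stood apart from the others by its level. Cpa3 and Cma1 encode the carboxypeptidase and chymase of mast cell granules, Ms4a2 the beta chain of the IgE receptor, and Hdc the enzyme that makes histamine. Cma1 was at 3.00, 3.89, 2.09, 1.58 and 1.79 FPKM in WT and at 3.22, 2.32, 2.18 and 3.77 FPKM in ERβKO ovaries. Cpa3 was at 1.59, 3.07, 1.71, 1.502 and 0.930 FPKM in WT and at 2.06, 2.36, 1.47 and 2.65 FPKM in ERβKO ovaries. For both proteases WT replicate 2 was highest and ERβKO replicate 4 second, and the groups overlapped (log2FC 0.24 and 0.28, SE 0.30 and 0.30, edgeR adjusted p = 0.699 and 0.638). Ms4a2 had 1 to 9 counts per library and was listed at 0 FPKM in 8 of them.

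Hdc was at 62.7, 76.4, 42.7, 109 and 80.0 FPKM in WT and at 68.2, 72.4, 59.8 and 52.5 FPKM in ERβKO ovaries, the fifth-highest mean of the 37 genes. The ERβKO values lay inside the WT range (log2FC -0.27, SE 0.22, edgeR adjusted p = 0.532). The order of ovaries differed from that of the proteases. WT replicate 4 had the highest Hdc and the lowest Cma1, and ERβKO replicate 4, second-highest for both proteases, had the second-lowest Hdc. The ratio of Hdc to Cpa3 varied over the ovaries by a factor of 4.34 and that to Cma1 by 4.93, against 1.96 for the ratio of Cpa3 to Cma1. Whether Hdc was expressed outside mast cells was not tested.

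**Figure D3:**
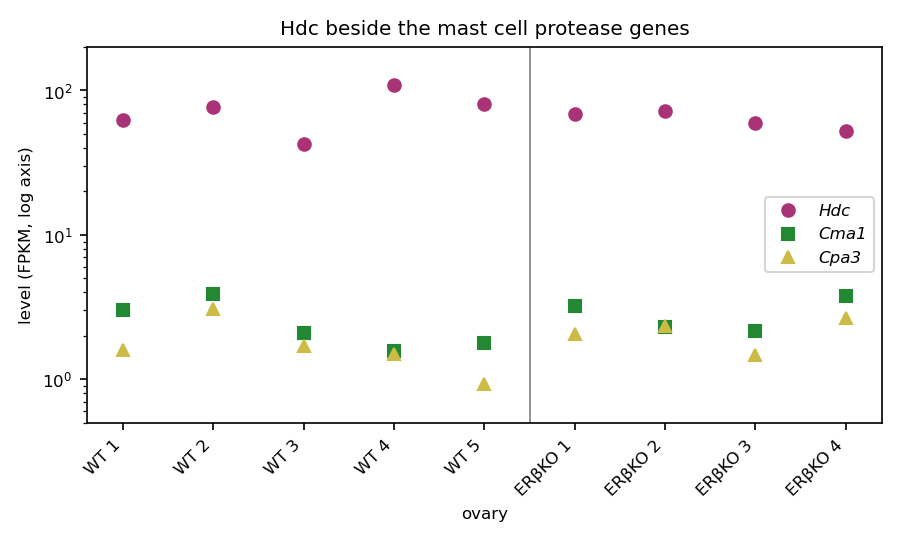
Levels of Hdc, Cma1 and Cpa3 in FPKM (vertical log axis) in the 5 WT and 4 ERβKO ovaries. Hdc lies between 42.7 and 109 FPKM and the proteases between 0.930 and 3.89 FPKM, and the ovaries with most Hdc are not those with most protease.

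The largest log2FC values of the members, in either direction, were those of C4b and Saa3 among the complement and acute phase genes. C4b (ENSMUSG00000073418, chromosome 17 of GRCm38 from 34728380 to 34743882) encodes C4, which the classical and lectin pathways cleave. It was at 6.61, 9.46, 10.5, 5.76 and 5.37 FPKM in WT and at 17.9, 16.4, 15.04 and 10.3 FPKM in ERβKO ovaries. The first 3 ERβKO ovaries were above every WT ovary, and replicate 4 was just below WT replicate 3. The log2FC was 0.96 (SE 0.21, 95% interval of the fold change 1.40 to 2.70), and the edgeR adjusted p of 0.0508 missed the threshold, while that of DESeq2 was 0.00138. In the exact two-sided permutation test on log2 CPM p was 0.0317. With each ovary left out in turn the log2FC stayed between 0.86 and 1.11, and C4b was called in the fits without WT replicate 2 or WT replicate 3. Without WT replicates 4 and 5 it was 0.74 with an edgeR adjusted p of 0.189. The near-identical neighbour C4a, named after its values were seen, had 15 to 46 counts per library against 511 to 2142 for C4b, and how reads common to both were assigned is not given in the sources used here.

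C3, on which all complement pathways converge, was at 91.1, 179.7, 192, 108 and 109.7 FPKM in WT and at 168, 172, 243 and 157 FPKM in ERβKO ovaries. WT replicates 2 and 3 lay among the ERβKO values and the other 3 WT ovaries below them (log2FC 0.42, SE 0.23, edgeR adjusted p = 0.346). C2, the protease that joins C4 in the convertase, had a log2FC of 0.11 (SE 0.13) in counts and of 0.14 (SE 0.13, limma on log2(FPKM + 1)) in FPKM. Its counts were low for its level, with 247 to 415 per library at a mean of 27.4 FPKM. C4b had 511 to 2142 at 10.8 FPKM. For Cfb, the counterpart of C2 in the alternative pathway, the count table held 3 to 29 fragments per library, while the FPKM table listed 4.16 to 10.5. The read-through gene Gm20547, also named after its values were seen, shares 79.5% of the exon length of Cfb and 42.8% of that of C2 on the same strand, and it had 0 counts in every library. On the FPKM scale the log2FC of Cfb was 0.47 (SE 0.23, limma on log2(FPKM + 1), adjusted p = 0.304), with 10.5 FPKM in WT replicate 5 above all ERβKO ovaries. H2-Ab1, H2-Aa, H2-Eb1, C4b, Cfb and C2 lie within 635 kb on chromosome 17, from 34263209 to 34898265, and C4b had the largest log2FC of the 5 tested there.

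Saa3 (ENSMUSG00000040026, chromosome 7 of GRCm38 from 46711998 to 46715676) was at 10.6, 8.82, 6.01, 4.68 and 9.14 FPKM in WT and at 3.56, 6.52, 2.45 and 4.84 FPKM in ERβKO ovaries. WT replicates 1, 2 and 5 were above every ERβKO ovary, and WT replicates 3 and 4 lay among them. The log2FC was -0.91 (SE 0.31, edgeR adjusted p = 0.150), DESeq2 gave an adjusted p of 0.0502, and the exact two-sided permutation test p = 0.0794. With each ovary left out in turn the log2FC lay between -1.19 and -0.73. The counts behind these values were 25 to 109 per library. Among the members with an unadjusted p under 0.05 Saa3 had the only negative value.

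**Figure D4:**
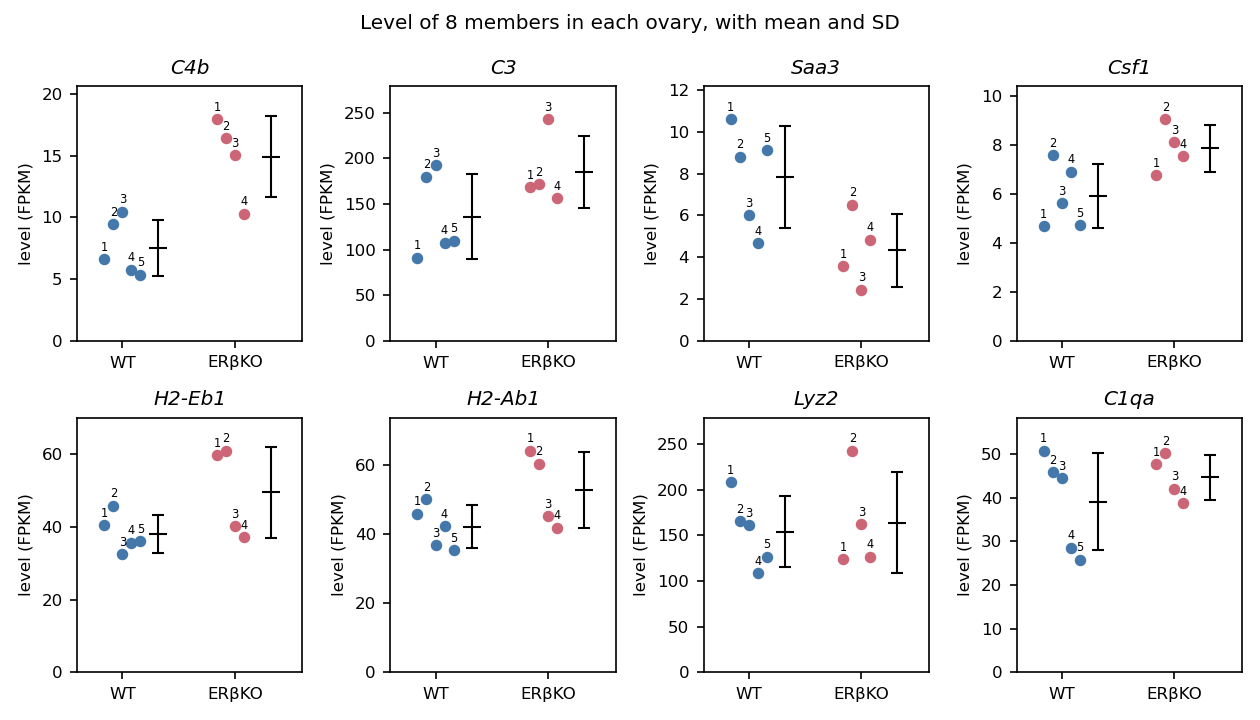
Level in FPKM (vertical axis from 0) of 8 genes in each WT (blue) and ERβKO (red) ovary, numbered by replicate, with mean and SD in black. C4b in ERβKO replicates 1 to 3 is above all WT ovaries, whose highest is 10.5 FPKM, H2-Eb1 and H2-Ab1 are high in ERβKO replicates 1 and 2 only, and the Lyz2 and C1qa values of the groups overlap.

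The promoters of Saa3 and C3 both hold a match to the core of the site bound by C/EBP factors, which act on acute phase genes, and are shown because the fold changes of these genes had opposite signs. The core was searched as TTGCNNAA on both strands, and 10.8% of all promoters and 6 of the 25 members with an entry held it, the others being Cd68, Cd8a, Fcgr3 and Trem2. This motif too was chosen with the promoter sequences in view, so that the shares cannot test an enrichment. Capitals mark the match, which is on the opposite strand in Saa3. The pieces run from -130 to -30 for Saa3 and from -130 to -1 for C3.
Saa3, chr7:46715706-46715806, minus strand: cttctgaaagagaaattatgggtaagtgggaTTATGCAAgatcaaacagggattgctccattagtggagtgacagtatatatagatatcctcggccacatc
C3, chr17:57228137-57228266, minus strand: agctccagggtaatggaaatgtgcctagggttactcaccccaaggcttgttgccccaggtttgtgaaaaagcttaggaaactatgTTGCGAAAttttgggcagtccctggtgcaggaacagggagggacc

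Further genes of the same systems were examined in lists of related genes, with calls by edgeR unless DESeq2 is named. Of 20 other macrophage genes, all tested, 13 had positive and 7 negative log2FC values, with a median of 0.16. None was called by edgeR or DESeq2, and 4 had an unadjusted p under 0.05 in edgeR. Those with the smallest p were the lectin gene Clec4n (-0.59, SE 0.19), the hyaluronan receptor gene Lyve1 (0.63, SE 0.22) and the efferocytosis receptor gene Mertk (0.32, SE 0.12). Of 8 other Fc receptor and ITAM genes 5 were tested, with a median of 0.08, and of 8 dendritic cell genes 8, with a median of 0.20, and neither list held a call by edgeR or DESeq2 or an unadjusted p under 0.05 in edgeR. The 10 granulocyte genes all fell below the filter, with a summed level of 0.531 to 1.89 FPKM per ovary. Of 20 other T, B and NK cell genes 13 were tested, 10 with positive log2FC values and a median of 0.35. None was called by edgeR or DESeq2, and 3 had an unadjusted p under 0.05 in edgeR. Those with the smallest p were Ighm (1.11, SE 0.39, edgeR adjusted p = 0.154), the granzyme gene Gzma (1.04, SE 0.44, edgeR adjusted p = 0.224) and the T cell receptor chain gene Cd3g (0.80, SE 0.36, edgeR adjusted p = 0.252).

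Genes of MHC class I, which all nucleated cells use to present peptides, included calls. All 9 had positive log2FC values, with a median of 0.27, and edgeR and DESeq2 each called 2. Nlrc5, the transactivator of class I genes and a relative of Ciita, was at 1.19, 1.57, 1.43, 1.26 and 1.39 FPKM in WT and at 4.25, 3.39, 2.21 and 2.04 FPKM in ERβKO ovaries. All 4 ERβKO values exceeded the highest WT value. Groups without overlap, in either direction and on the log2 CPM scale, were found for 7.96% of all tested genes and for 0 of the 32 members. The log2FC was 1.10 (SE 0.20, edgeR adjusted p = 0.0226). H2-D1, a class I heavy chain gene, was at 64.5, 63.2, 64.2, 57.1 and 55.5 FPKM in WT and at 109, 95.3, 80.8 and 69.1 FPKM in ERβKO ovaries, again without overlap (log2FC 0.50, SE 0.11, edgeR adjusted p = 0.0475). For B2m, the common light chain, the log2FC was 0.34 (SE 0.12, edgeR adjusted p = 0.149). As for class II, the highest values of Nlrc5, H2-D1 and B2m were from ERβKO replicates 1 and 2. Of 10 other class II genes 9 were tested, with a median log2FC of 0.07, none was called by edgeR or DESeq2, and 0 had an unadjusted p under 0.05 in edgeR. The RFX subunit gene Rfx5 was at 0.07 (SE 0.08).

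Of 17 other complement genes 13 were tested, 7 with positive and 6 with negative log2FC values and a median of 0.10. The test by edgeR called 1 of them and DESeq2 called 2. C7, a part of the membrane attack complex, was at 1.32, 2.28, 2.06, 1.03 and 0.967 FPKM in WT and at 2.42, 4.08, 4.38 and 3.89 FPKM in ERβKO ovaries. The FPKM values of the groups did not overlap, although ERβKO replicate 1 lay close to WT replicate 2 (log2FC 1.31, SE 0.27, edgeR adjusted p = 0.0364). C6, of the same complex, had a log2FC of 1.49 (SE 0.47) and Hc, which encodes C5, one of -1.21 (SE 0.41). Neither was called by edgeR, while DESeq2 called C6 (adjusted p = 0.0315). Of the 10 complement regulators 9 were tested, 3 had an unadjusted p under 0.05 in edgeR, and 0 were called by either tool, with a median of -0.02 and with Serping1, the C1 inhibitor, at 0.35 (SE 0.08, edgeR adjusted p = 0.0593). Of 10 other acute phase genes 7 were tested, with a median of 0.41, and 4 had an unadjusted p under 0.05 in edgeR. By the full criteria edgeR called 0 and DESeq2 called 3. Saa2, a relative of Saa3, had 55, 79, 47, 39 and 72 counts in WT and 1, 0, 1 and 23 in ERβKO ovaries, the groups did not overlap, and it was not called by edgeR (adjusted p = 0.0670). The haptoglobin gene Hp had a log2FC in the other direction, of 1.09 (SE 0.27, edgeR adjusted p = 0.0613, DESeq2 adjusted p = 0.00287).

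**Figure D5:**
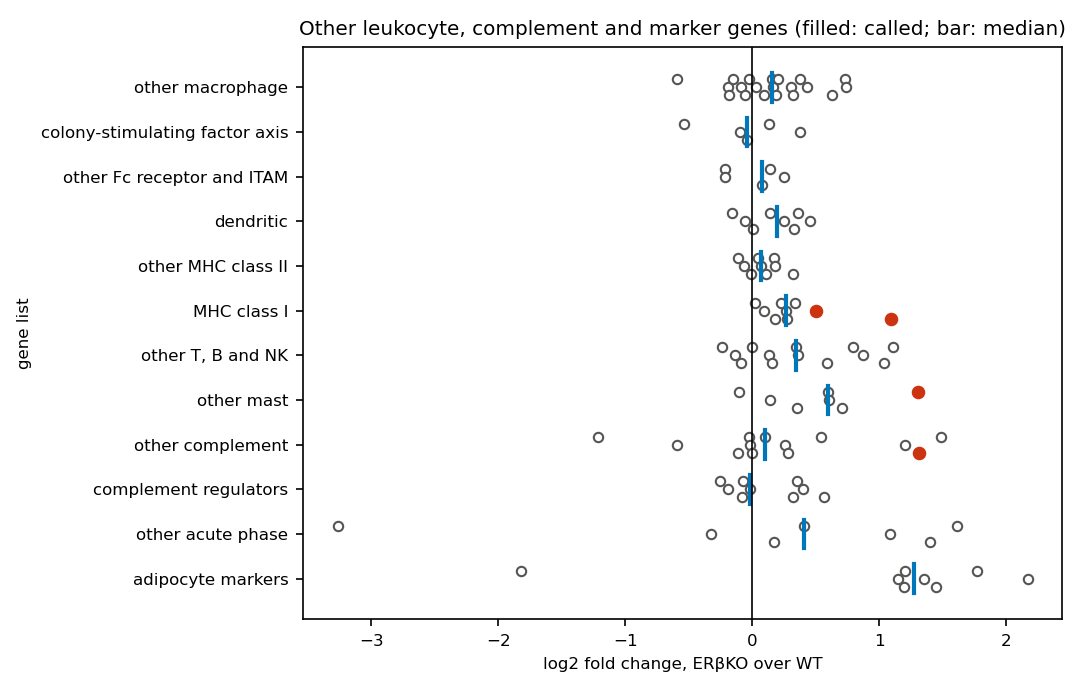
Log2 fold change (ERβKO over WT, horizontal axis) of the tested genes of 12 lists (rows), with filled points for genes called by edgeR and a bar at the median of each list. Calls are seen for Nlrc5 and H2-D1 of MHC class I, C7 of complement and 1 gene of the mast cell list, while the macrophage and dendritic cell lists hold none.

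Of 13 other mast cell genes 7 were tested, 6 with positive log2FC values and a median of 0.59, and 1 was called by both tools, the transcription factor gene Gata1, which erythroid cells share (1.31, SE 0.20, edgeR adjusted p = 0.0135). It averaged 1.42 FPKM over the WT ovaries and 3.58 FPKM over the ERβKO ovaries, and the groups did not overlap. The paper lists Gata1 with male gonad development among the genes raised in ERβKO ovaries, so that it is not a marker of mast cells alone. The tryptase gene Tpsb2 was at 0.59 (SE 0.24, edgeR adjusted p = 0.216), and Kit, the stem cell factor receptor that oocytes and theca cells also express, at 0.71 (SE 0.24, edgeR adjusted p = 0.144). Mcpt1, Mcpt2 and Mrgprb2 were listed at 0 FPKM in all 9 ovaries. Lists of the other ovarian cell types were measured beside these genes. The granulosa markers had a median log2FC of 0.60 with 10 of 10 positive, and edgeR called 1 (Hsd17b1, of estradiol synthesis) and DESeq2 5. The luteal markers had one of -0.86 with 8 of 9 tested negative and 5 at an unadjusted p under 0.05 in edgeR, which called 0, while DESeq2 called 3. Oocyte markers had a median of 0.43, oviduct epithelium 0.32, surface epithelium 0.24, erythroid cells 0.09, theca cells 0.03, stroma -0.0023 and endothelium -0.09. Among these 7 lists edgeR called the theca marker Aldh1a1, and DESeq2 called 2 theca markers and 1 endothelial marker. Their part in the differences of C4b, Saa3, Csf1 and the class II genes was not tested.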

How the data were processed

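Per the study's methods, stranded libraries of polyadenylated RNA from ovaries were sequenced as read pairs. The submitters' processing notes name bcl2fastq (2.20.0.422), Trim Galore, STAR, featureCounts and StringTie, and the authors mapped the reads to mm10, the GRCm38 build. The deposited counts are the authors' raw fragment counts per gene, not normalized. The strand setting of the counting is not given in the sources used here. The deposited FPKM values were calculated by the authors with StringTie, per length of the gene and per depth of the library. The deposited TPM values, which the authors' tool makes sum to 1 fixed total, and the authors' coverage per base were read only to check the columns. The GEO treatment text describes a diet experiment while the sample labels say untreated, and the labels were followed.

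The 37 members, the 22 other lists, the tests and the named genes were chosen with earlier results of these data known. Counts of 46078 genes were filtered with filterByExpr (16722 kept), normalized by TMM and tested with edgeR 4.0.16 (quasi-likelihood F test, genotype as the only factor, Benjamini-Hochberg adjustment over all tested genes) in R 4.3.3. The common biological coefficient of variation was 0.179. The thresholds are the study's, and its tool, DESeq2 (1.42.0 here), was an alternative, as were other normalizations and filters, a replicate block, each ovary left out, the libraries numbered below 200, and limma 3.58.1 on log2(FPKM + 1) or log2(FPKM + 0.1). Standard errors were taken from the fold change and its F statistic. Exact permutation tests ran over the 126 divisions of 9 ovaries into 5 and 4. On simulated counts with 200 genes changed by 2 log2 units in either direction, edgeR and DESeq2 each recovered 100% of these. Of their calls there, 1.96% (edgeR) and 10.3% (DESeq2) were false. Each library is a separate mouse, and p-values measure the spread between these animals. Values in every ovary are given for members with an unadjusted p under 0.05 and for the defining genes of each role; of other lists, the called genes and up to 3 with the smallest p are named. Gene positions and shared exons are from GENCODE vM21. Motifs were chosen with the promoter sequences in view, and a missing promoter was looked for nowhere else. Tables were handled in Python 3.11.15 with pandas 2.3.3 and drawn with matplotlib 3.10.9.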

Additional observations from a re-analysis of the deposited data

Results flagged for a closer look

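In 3 of the 64 groups of a tested member within 1 genotype, a single ovary stood far from the others on the log2 CPM scale by Dixon's criterion, which chance meets in about 1 in 20 groups. Csf1r was at 10.1 FPKM in WT replicate 1 and between 5.85 and 7.16 FPKM in the other WT ovaries. Fcgr1 was at 1.36 FPKM in ERβKO replicate 1 and between 1.08 and 1.18 FPKM in the other ERβKO ovaries. C3 was at 243 FPKM in ERβKO replicate 3 and between 157 and 172 FPKM in the other ERβKO ovaries. None of these 3 genes was called under any alternative.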

How the results depend on the processing

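Members were called under 4 of the 20 alternatives. DESeq2 called 1 member (C4b, log2 fold change 0.95) and 805 genes in all, the fit without a filter on low counts called 1 (C4b, 0.95), and the fits that left out 1 ovary called 0 to 2 members and 60 (without ERβKO replicate 2) to 919 genes (without WT replicate 2). The number was also outside 1.5 times 287 without WT replicate 1 (118), 4 (161) or 5 (110) and without ERβKO replicate 3 (152) or 4 (80). In those fits C4b ranged from 0.86 to 1.11 and Csf1 from 0.37 to 0.65. Among the 16 members followed through the alternatives, 296 of 318 values kept their direction and their side of the threshold, 5 passed it, and 17 values of 6 members turned negative, none of them called. The alternatives without the minimum FPKM and without the minimum fold change reuse the main fit. Their values are among the 318 and could not change. With 1 ovary left out, Ptprc ranged from -0.023 to 0.13, Lyz2 from -0.18 to 0.21 and Adgre1 from -0.034 to 0.16. With the libraries numbered below 200 only, 51 genes were called, and Ptprc was at -0.097, Lyz2 at -0.13, Adgre1 at -0.11, Csf1r at -0.050, C1qa at -0.071 and Cma1 at -0.035. The cause was not tested.

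With the replicate block, 155 genes and 0 members were called, and Ptprc was at -0.0090, Lyz2 at -0.014 and Adgre1 at -0.0043. The labels give both genotypes replicate numbers but no shared litter or day. The deviations of same-numbered ovaries from their group means correlated at 0.0948, 0.13, -0.0427 and -0.0105 over 16722 genes. For none of WT replicates 1 to 4 was the ERβKO ovary of the same number the closest. The numbers were therefore not taken to pair the samples, and a shared litter or day was not tested.

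Cd3e, Cd8a, Gzmb and Ms4a2 had too few counts to pass the filter of edgeR, at mean levels of 0.0036 to 0.30 FPKM. Cfb did not pass it either, although its mean level was 7.89 FPKM, and it shares 79.5% of its exon length with Gm20547. The age and cycle stage of each animal are not given in the sources used here, and library numbers above 200 occur in WT only. The part of these in any difference was not tested.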
